A study of Mus musculus with 9 samples.

Results

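The mRNAs of 10 olfactory axon sorting and guidance molecules were followed among the mRNAs that co-precipitated with phosphorylated ribosomal protein S6 (pS6) from the mouse olfactory epithelium (OE). They were matched by symbol among the 23607 genes of the tables: Kirrel2, Kirrel3, Efna5, Epha5, Nrp1, Nrp2, Plxna1, Sema3a, Robo2 and Sema7a. Each library came from 1 C57BL/6 mouse, with no genotype given beyond the strain. The 3 control mice were given distilled water, 3 mice were given 1% heptanal and 3 mice were given 100% heptanal, each for 1 hr. Every group held 1 mouse of postnatal day 22, 1 of day 21 and 1 of day 18, and values below are given in that order of days. Within a day the mice were littermates of the same sex, so that day, litter and sex cannot be told apart. Sample names begin with YJC for day 22 and with YJE for days 21 and 18. What the names stand for is not given, and it cannot be told apart from day 22.

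S6 is phosphorylated in neurons that have been active, and immunoprecipitation (IP) with an antibody to pS6 enriches the mRNAs those neurons were translating. The precipitate was made from whole OE, which also holds supporting cells, progenitors, vessels and blood, and in such a bulk sample fewer cells of a type and less RNA per cell cannot be told apart. No library of RNA before precipitation is among the samples. A change in how much of a cell type's RNA was precipitated therefore cannot be told apart from these either. Levels below are shares of the precipitated mRNA. Olfactory sensory neurons (OSNs) that express the same odorant receptor send their axons to the same glomeruli of the olfactory bulb. In the prevailing account, the position of a glomerulus along the bulb is set early, by basal receptor signaling acting on guidance molecules such as neuropilin-1, plexin-A1 and semaphorin-3A and, along the dorsal-ventral axis, by neuropilin-2 and Robo2. Neighboring axons are then sorted locally by odor-evoked and spontaneous activity, which sets the amounts of adhesion molecules such as Kirrel2 and Kirrel3 and of ephrin-A5 and its receptor EphA5. Kirrel2 is known to be high, and Kirrel3 and EphA5 low, in OSNs with strong activity, in complementary patterns.

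Counts per mouse summed to between 5438466 and 9707543, with a median of 7305850. Levels are given as CPM, the count per fixed library size, scaled by TMM, a normalization that sets aside the genes that differ most between libraries. All 10 members were among the 14930 genes tested. By the column taken as uniquely mapped counts, 99.7% to 100% of the reads of each member mapped to 1 place in the genome. Of the 6 activity genes followed as a check of the exposure, 4 passed the test as higher in 100% heptanal against control: Fosb by 4.98 on the log2 scale, Egr1 by 2.98, Fos by 2.72 and Nr4a1 by 2.18. Npas4 was scarce, with a mean of 0.188 CPM in control and 1.94 CPM in 100% heptanal. Arc was at 0.401, 1.68 and 1.24 times the control of the same day. The 8 markers of mature OSNs summed to between 4883 and 10054 CPM in the control mice, 7182 and 9679 CPM in the 1% heptanal mice and 12043 and 17123 CPM in the 100% heptanal mice.

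Kirrel2 was the 1 member called higher in 100% heptanal, under scaling to all genes. The call was lost without the day term, without some mice and under scaling to mature OSN markers, which were also higher in this comparison. Kirrel2 is a homophilic adhesion protein of the immunoglobulin superfamily, found on OSN axons, and its gene lies at chr7:30447534-30457690 on the minus strand of the mm10 build. In the control mice its level was 157, 156 and 117 CPM. The 1% heptanal mice were at 192, 166 and 136 CPM. The 100% heptanal mice were at 391, 342 and 244 CPM. All 3 mice given 100% heptanal therefore stood above all 6 other mice, whereas the 1% heptanal and control mice overlapped. Of all genes, 5.96% had all 3 mice given 100% heptanal above all 3 controls. The share above all 6 other mice was not counted.

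Within a day, Kirrel2 was 2.49, 2.19 and 2.09 times as high in 100% heptanal as in control. The fitted change was 1.17 on the log2 scale (SE 0.12, 95% confidence interval 0.89 to 1.45), or 2.25-fold, with an adjusted p of 0.00775 by edgeR's quasi-likelihood test. Kirrel2 was the 13th gene of all those tested when ranked by p. This was 1 call among the 10 members, beside 0.322% of all genes called higher and 0% called lower. The call was lost when any 1 of the 3 control mice or the 100% heptanal mouse of day 21 was left out, and was kept without each of the other 5 mice. The fitted change over these 9 fits lay between 1.11 and 1.23, with adjusted p between 0.0149 and 0.151 by edgeR, and leaving out any 1 day also ended the call. Without the replicate block, that is without a term for day, the change was 1.18 and its adjusted p was 0.564 by edgeR.

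**Figure D1:**
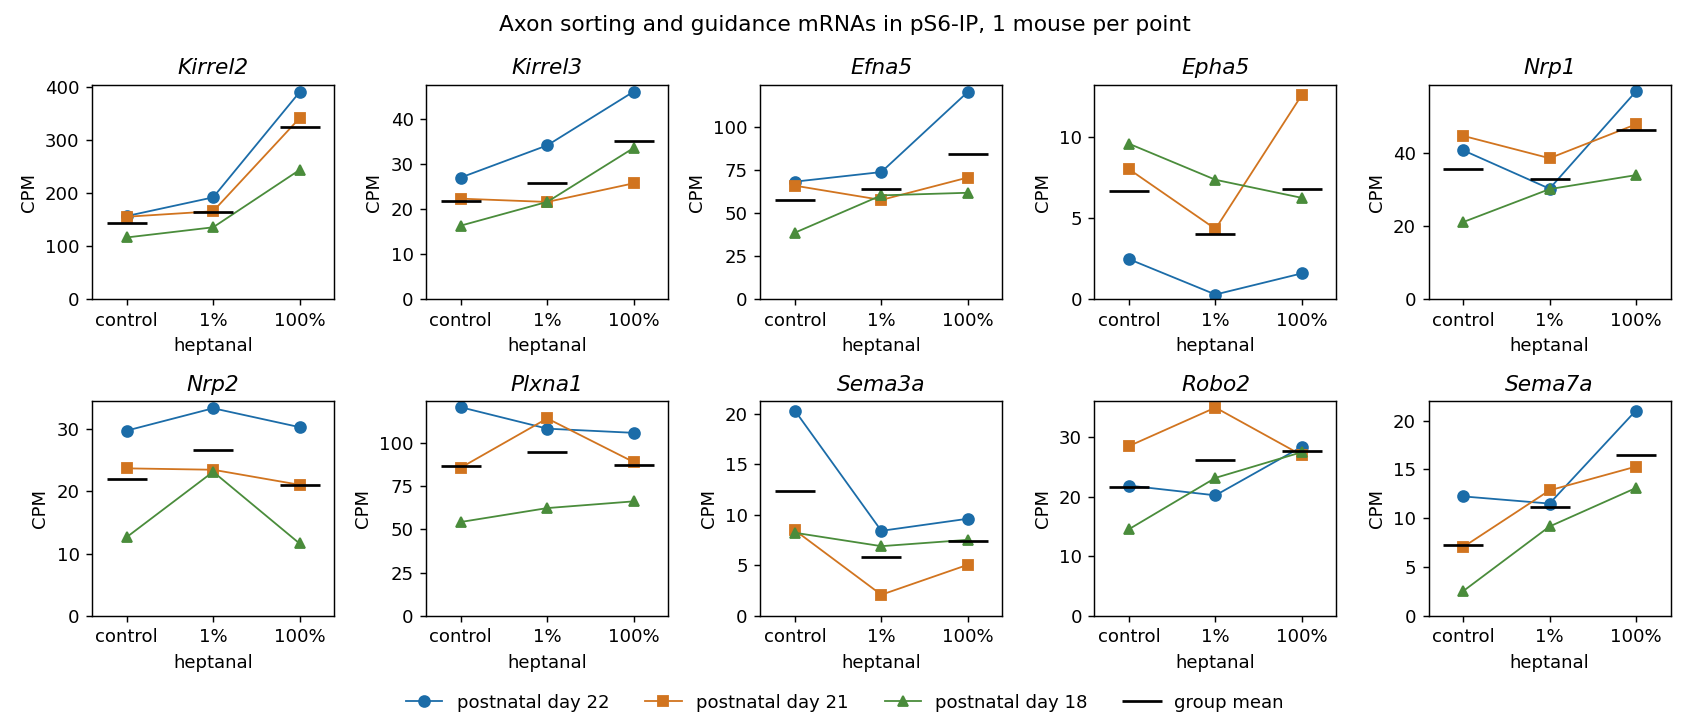
Level of each of the 10 mRNAs (CPM, y axis from 0) in control, 1% heptanal and 100% heptanal (x axis). Each point is 1 mouse, lines join mice of the same postnatal day, and black bars are the means of 3 mice. Kirrel2 in all 3 mice given 100% heptanal lies above the other 6 mice. Of all genes, 5.96% had these 3 mice above all 3 controls. By the sum of squares of log2 CPM, 8 of the 10 members varied more between days than between groups, as did 11291 of the 14930 genes tested.

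Kirrel2 in 1% heptanal differed from control by 0.20 on the log2 scale (95% confidence interval -0.08 to 0.48, adjusted p = 1.00 by edgeR). It was the 1 member of 10 that was higher in 1% heptanal on all 3 days, by 1.22, 1.07 and 1.16 times, where 11.5% of all genes were. From 1% to 100% heptanal Kirrel2 rose by 0.97 on the log2 scale (SE 0.12, 95% confidence interval 0.69 to 1.25, adjusted p = 0.0394 by edgeR), with ratios of 2.03, 2.06 and 1.80. No other member was called in this step, in which 0.0804% of all genes were called higher and 0% lower. This second call was lost when any 1 mouse was left out, also a control mouse, with adjusted p of 0.0509 to 0.345 by edgeR. The call thus needed all 9 mice, while the fitted change over these fits lay between 0.92 and 1.03.

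Mature OSN markers moved in the same comparison. All 8 were higher in 100% heptanal than in control, with a median change of 0.75 on the log2 scale, and 2 passed the test: Omp, the olfactory marker protein, by 1.11 (adjusted p = 0.0311 by edgeR) and Stoml3, a membrane protein of OSN cilia, by 1.22 (adjusted p = 0.0231 by edgeR). The summed level of the 8 markers was 2.03, 1.70 and 2.47 times that of the control mouse of the same day. The largest of these ratios was on day 18, where the Kirrel2 ratio was the smallest. Taken singly, Cnga2 (3.39, 1.55 and 2.13 times) and Rtp1 (2.21, 1.15 and 1.65 times) were largest on day 22, as Kirrel2 was. The other markers were largest on day 18. A link between the markers and Kirrel2 was not tested. None of the 8 markers was at 0 in any mouse.

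**Figure D2:**
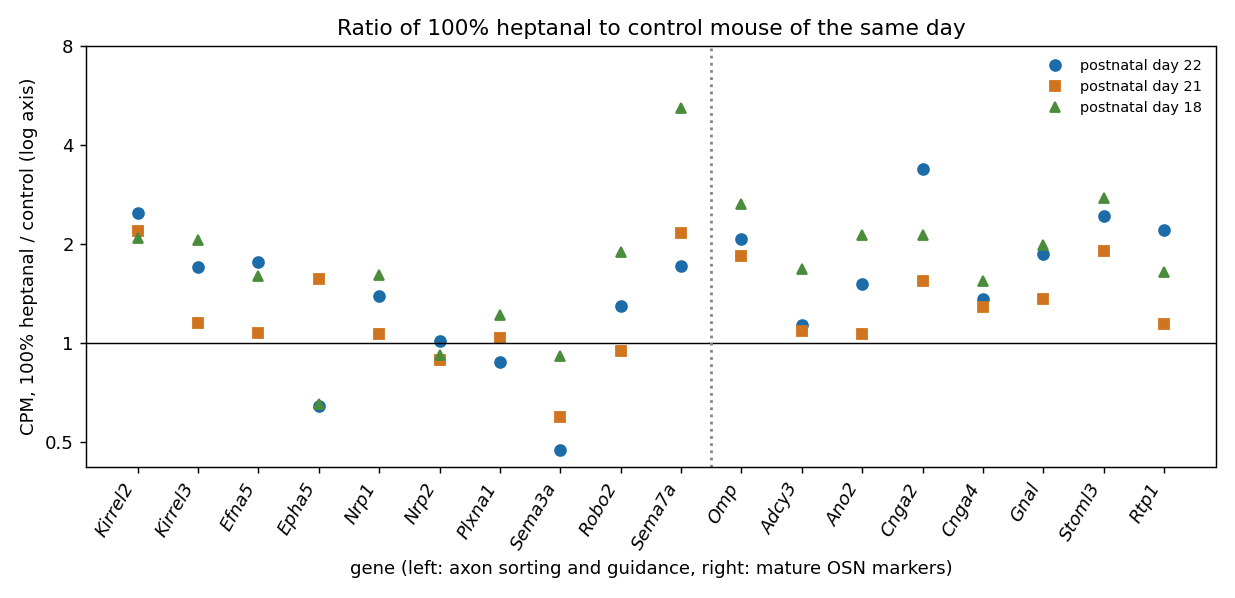
Ratio of CPM in the 100% heptanal mouse to the control mouse of the same postnatal day (y axis, log scale) for the 10 axon sorting and guidance mRNAs (left of the dotted line) and 8 mature OSN markers (right). Points are the 3 days. Kirrel2 lies between 2.09 and 2.49 on all 3 days, and the 8 markers are also above 1 on each day.

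Set against OSN markers in place of all genes, Kirrel2 no longer differed detectably between the groups. Per 1000 counts of the 5 markers used for this scaling (Omp, Adcy3, Ano2, Cnga2 and Gnal) there were 26.8, 17.9 and 27.5 counts of Kirrel2 in the control mice. The corresponding values were 28.0, 19.6 and 22.1 in 1% heptanal and 33.2, 22.9 and 23.1 in 100% heptanal. The 100% heptanal mouse was above its control on days 22 and 21 and below it on day 18. The fitted change of Kirrel2 on this scale was 0.14 (95% confidence interval -0.32 to 0.59, adjusted p = 0.568 by edgeR), and it was 0.36 (95% confidence interval -0.34 to 1.06, adjusted p = 0.380 by edgeR) when the geometric mean of all 8 markers was used. Both scalings moved the median of all genes, to -1.04 and -0.80, from -0.0022 under TMM, by about as much as they moved Kirrel2, since a scaling shifts every gene alike. Of all genes, 48 were called higher and 0 lower under TMM, 48 higher and 9694 lower under scaling by 5 markers, and 58 higher and 3084 lower under scaling by 8. Omp alone made up 74.7% to 83.4% of the counts of the 5 markers.

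**Figure D3:**
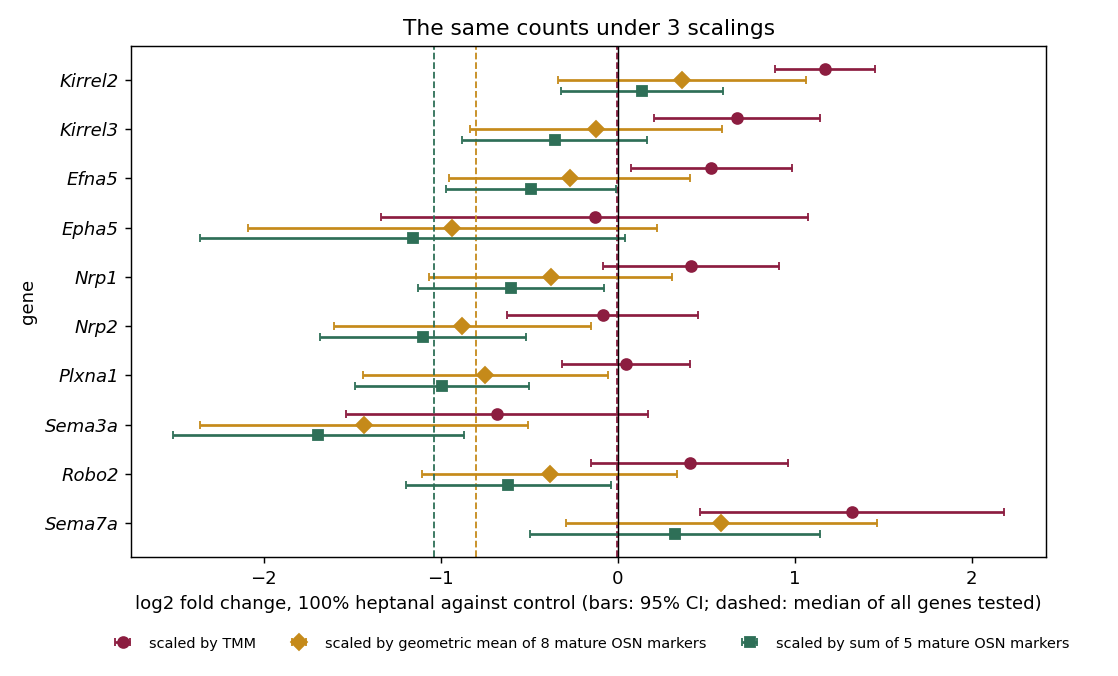
Fitted log2 fold change of 100% heptanal against control (x axis) for the 10 members under TMM, under scaling by the geometric mean of 8 mature OSN markers and under scaling by the sum of 5 of them. Bars are 95% confidence intervals and dashed lines are the median of all 14930 genes under each scaling. Kirrel2 moves from 1.17 to 0.36 and 0.14 while the median gene moves from -0.0022 to -0.80 and -1.04.

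Kirrel3, the relative of Kirrel2 that also binds to itself and is reported in a complementary set of OSNs (chr9:34485894-35036716, plus strand), was higher in 100% heptanal on each day without passing the test. Its level was 26.9, 22.3 and 16.3 CPM in the control mice. It was 34.1, 21.5 and 21.6 CPM in 1% heptanal and 46.0, 25.7 and 33.5 CPM in 100% heptanal. The ranges of the control and 100% heptanal mice overlapped, because the 100% heptanal mouse of day 21 was below the control mouse of day 22. The difference from control was 0.67 on the log2 scale in 100% heptanal (95% confidence interval 0.20 to 1.14, unadjusted p = 0.0103, adjusted p = 0.295 by edgeR) and turned to -0.36 and -0.12 under the scalings by 5 and by 8 OSN markers. In 1% heptanal it was 0.22 (95% confidence interval -0.25 to 0.69).

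The number of Kirrel2 counts for each Kirrel3 count, which does not depend on the scaling of the libraries, was 5.83, 6.99 and 7.16 in the control mice. It was 5.65, 7.71 and 6.30 in 1% heptanal and 8.50, 13.3 and 7.29 in 100% heptanal. Each 100% heptanal mouse was above its control of the same day and above all 3 control mice. On day 18 the margin was small, at 7.29 against 7.16. The 100% and 1% heptanal mice overlapped, since the 1% heptanal mouse of day 21 was above the 100% heptanal mouse of day 18. The share of other gene pairs that separate 100% heptanal from control was not counted. No test was made of this ratio.

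Efna5, which encodes the membrane-anchored ligand ephrin-A5 (chr17:62604184-62881317, minus strand), was at 68.3, 66.0 and 38.7 CPM in the control mice. The 1% heptanal mice were at 73.9, 57.7 and 60.3 CPM and the 100% heptanal mice at 120, 70.7 and 61.8 CPM. The groups overlapped, and the mouse of day 22 given 100% heptanal stood highest. The difference in 100% heptanal was 0.53 on the log2 scale (95% confidence interval 0.07 to 0.98, unadjusted p = 0.0279, adjusted p = 0.400 by edgeR), which became -0.49 and -0.27 under the scalings by 5 and by 8 OSN markers. In 1% heptanal it was 0.18 (95% confidence interval -0.27 to 0.64).

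Epha5, a receptor of ephrin-A5 (chr5:84054761-84417382, minus strand), had the lowest counts, between 2 and 90 per mouse. The control mice were at 2.48, 8.03 and 9.61 CPM. The 1% heptanal mice were at 0.295, 4.34 and 7.38 CPM and the 100% heptanal mice at 1.60, 12.6 and 6.26 CPM. All 3 mice of day 22 were below all 6 mice of the other days, whatever their group. The share of all genes split by day in this way was not counted. The difference in 100% heptanal was -0.13 on the log2 scale, with a 95% confidence interval of -1.34 to 1.08, wide enough to hold changes of over 2-fold in either direction. In 1% heptanal Epha5 was lower on each day, with a difference of -1.06 (95% confidence interval -2.30 to 0.19, adjusted p = 1.00 by edgeR). The 1% heptanal mouse of day 22 held 2 counts of Epha5. In that mouse the mature OSN markers Cnga2 and Rtp1 were also low, at 0.171 and 0.235 times the control. There Adcy3 and Gnal were at 0.919 and 0.815 times, and Omp, Ano2, Cnga4 and Stoml3 at 1.28, 1.08, 1.22 and 1.41 times. Low ratios in that mouse were not limited to OSN markers. The progenitor marker Top2a was at 0.0391 times, the fibroblast marker Dcn at 0.114 and the immune marker Ptprc at 0.127. From the same lists, Mki67 was at 0.952, Lum at 1.39 and Csf1r at 1.33 times. The share of all genes this low in that mouse was not counted.

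**Figure D4:**
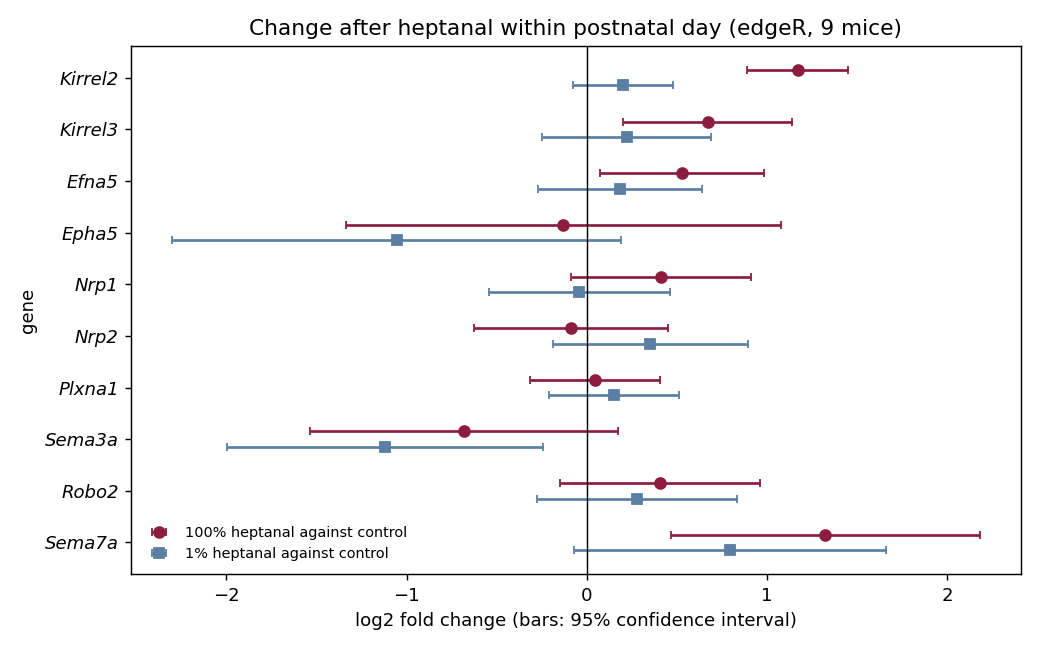
Fitted log2 fold change (x axis) of the 10 members in 100% heptanal (circles) and in 1% heptanal (squares) against control, within postnatal day. Bars are 95% confidence intervals from edgeR. Kirrel2 at 100% heptanal, at 1.17, is the value that passed the adjusted threshold. Epha5, Sema3a and Sema7a have the widest intervals.

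The molecules of global targeting along the anterior-posterior axis did not pass the test at either concentration. Nrp1, the receptor neuropilin-1 (chr8:128358604-128503363, plus strand), was at 40.7, 44.7 and 21.1 CPM in the control mice, 30.2, 38.6 and 30.1 CPM in 1% heptanal and 56.8, 47.8 and 33.9 CPM in 100% heptanal. The groups overlapped, although on each day the 100% heptanal mouse was above its control. The difference was 0.41 on the log2 scale in 100% heptanal (95% confidence interval -0.09 to 0.91, adjusted p = 0.555 by edgeR), turning to -0.61 and -0.38 under the scalings by 5 and by 8 OSN markers, and -0.04 (95% confidence interval -0.54 to 0.46) in 1% heptanal. Nrp1 is also known from vessels. The 6 endothelial markers summed to 38.8 to 92.6 CPM in control and 29.6 to 102 CPM in 100% heptanal, at 1.10, 1.17 and 0.763 times the control of the same day, and their part in the Nrp1 values was not tested.

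Sema3a, the secreted ligand that repels axons bearing neuropilin-1 (chr5:13125414-13602565, plus strand), was the member that was lower than control on all 3 days at both concentrations. It was at 20.3, 8.46 and 8.22 CPM in the control mice. It was at 8.40, 2.08 and 6.89 CPM in 1% heptanal and at 9.60, 5.05 and 7.52 CPM in 100% heptanal. The control mouse of day 22 stood far above all others, and on day 18 the 3 mice were close to each other. The difference was -1.12 on the log2 scale in 1% heptanal (95% confidence interval -1.99 to -0.24, unadjusted p = 0.0179, adjusted p = 1.00 by edgeR) and -0.68 in 100% heptanal (95% confidence interval -1.54 to 0.17, adjusted p = 0.576 by edgeR). Under the scalings by 5 and by 8 OSN markers the latter became -1.69 and -1.43 (adjusted p = 0.00335 and 0.0343 by edgeR), with the median of all genes at -1.04 and -0.80. Both comparisons share the same control mice. The summed level of 7 fibroblast and bone markers was lower in 100% heptanal too, at 0.583, 0.737 and 0.912 times the control, beside 0.473, 0.597 and 0.915 for Sema3a. That sum was mostly the collagen genes Col1a1 and Col1a2, and 2 of the 7 markers were above 0 in the fit, Dcn at 1.31 and Pdgfra at 0.18 on the log2 scale, neither passing the test. In 1% heptanal Sema3a was at 0.414, 0.247 and 0.839 times the control, while the 7 markers summed to 6333, 8211 and 3333 CPM against 9850, 8624 and 2459 CPM. The part of those cells in the Sema3a values was not tested.

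Plxna1, the plexin-A1 co-receptor that carries semaphorin signals into the axon (chr6:89316314-89362620, minus strand), was at 121, 85.8 and 54.3 CPM in control, 108, 114 and 62.4 CPM in 1% heptanal and 106, 89.1 and 66.3 CPM in 100% heptanal. The order of the days was plain and the order of the groups was not. The difference of 0.05 on the log2 scale in 100% heptanal had a 95% confidence interval of -0.31 to 0.41, among the narrowest of the members, and under the scalings by 5 and by 8 OSN markers it became -0.99 and -0.75, close to the shift of the median gene. Plxna1 shares 970 bases of exon with the antisense gene Gm26811, and reads of the pair cannot be told apart because strand was not kept.

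Along the dorsal-ventral axis, Nrp2, the receptor neuropilin-2 (chr1:62703285-62818695, plus strand), was at 29.7, 23.7 and 12.6 CPM in control, 33.3, 23.5 and 23.1 CPM in 1% heptanal and 30.3, 21.0 and 11.6 CPM in 100% heptanal. Within a day the 100% heptanal mouse was at 1.02, 0.889 and 0.919 times its control, and the fitted difference was -0.09 on the log2 scale (95% confidence interval -0.62 to 0.45, adjusted p = 0.944 by edgeR). Robo2, a receptor of Slit proteins (chr16:73891839-74411825, minus strand), was at 21.8, 28.5 and 14.5 CPM in control, 20.2, 34.9 and 23.1 CPM in 1% heptanal and 28.3, 26.9 and 27.4 CPM in 100% heptanal. Its 3 mice given 100% heptanal lay within 26.9 to 28.3 CPM while the controls spread over 14.5 to 28.5 CPM. The difference of 0.41 on the log2 scale (95% confidence interval -0.15 to 0.96, adjusted p = 0.622 by edgeR) turned to -0.62 and -0.38 under the scalings by 5 and by 8 OSN markers.

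Sema7a, a semaphorin held to the membrane by a lipid anchor (chr9:57940112-57962865, plus strand), had the largest fitted difference of the members and a wide interval. The control mice were at 12.2, 7.05 and 2.53 CPM. The 1% heptanal mice were at 11.5, 12.9 and 9.15 CPM and the 100% heptanal mice at 21.0, 15.3 and 13.1 CPM. All 3 mice given 100% heptanal were above all 3 controls, as was true of Kirrel2 and of 5.96% of all genes. Within a day the ratios were 1.72, 2.17 and 5.18, the last of them resting on 20 counts in the control mouse of day 18. The difference was 1.32 on the log2 scale (SE 0.38, 95% confidence interval 0.47 to 2.18, unadjusted p = 0.00696, adjusted p = 0.248 by edgeR) in 100% heptanal and 0.80 (95% confidence interval -0.07 to 1.66, adjusted p = 1.00 by edgeR) in 1% heptanal. Leaving out 1 mouse moved the first of these between 0.93 and 1.77, and no such fit called it. Under the scalings by 5 and by 8 OSN markers it was 0.32 (95% confidence interval -0.50 to 1.14) and 0.58 (95% confidence interval -0.29 to 1.46). Per 1000 counts of the 5 markers, the 100% heptanal mouse of day 22 was below its control, at 1.79 against 2.08 counts of Sema7a.

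Counted together, 5 of the 10 members (Kirrel2, Kirrel3, Efna5, Nrp1 and Sema7a) were higher in 100% heptanal than in control on all 3 days, where 18.4% of all genes were, and 1 (Sema3a) was lower on all 3 days, where 18.1% of all genes were. The median difference of the 10 members was 0.41 on the log2 scale, beside -0.0022 over all genes tested. The 8 mature OSN markers were also above 0 in this comparison, and under the scalings by 5 and by 8 of them the members' median was -0.61 and -0.38, beside -1.04 and -0.80 over all genes. Scaled by 5 markers, 0 members were higher on all 3 days and 8 were lower, where 0.958% and 80.5% of all genes were. Scaled by 8 markers, 1 member (Kirrel2) was higher on all 3 days and 6 were lower, where 1.63% and 72.2% of all genes were. At an unadjusted p under 0.05 under TMM, 4 members were higher and 0 lower, beside 6.63% and 3.79% of all genes. In 1% heptanal against control, 0 of the 10 were called by edgeR, and 0% of all genes were called in either direction. There 1 member, Sema3a, was lower at an unadjusted p under 0.05 and 0 were higher, beside 1.94% and 1.32% of all genes, and Sema3a and Epha5 were lower on all 3 days, as 11.7% of all genes were. The median of the members was 0.19 in 1% heptanal.

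Of 96 other guidance and axon adhesion genes listed, 84 were tested, and edgeR called 0 of them in each of the 3 comparisons. In 100% heptanal against control their median difference was 0.02 on the log2 scale, with 45 above 0 and 39 below. Of all 14930 genes tested, 7431 were above 0. At an unadjusted p under 0.05, 2 were higher and 2 lower among the 84, beside 6.63% and 3.79% of all genes. By family, 11 of 16 other semaphorins, 8 of 16 plexins and semaphorin signaling genes, 7 of 16 ephrins and Eph receptors, 2 of 8 Slit and Robo genes, 5 of 9 netrin and RGM genes and 12 of 19 adhesion molecules were above 0. The family medians lay between -0.09 for ephrins and Eph receptors and 0.23 for adhesion molecules. The lowest adjusted p was 0.146, for the ephrin gene Efna3 at 0.79, a gene singled out after its values were seen. In 1% heptanal 1 of the 84 was higher and 1 lower at an unadjusted p under 0.05, beside 1.32% and 1.94% of all genes. In the step from 1% to 100% heptanal 4 were higher and 2 lower, beside 6.74% and 3.68% of all genes.

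By the sum of squares of log2 CPM, 8 of the 10 members varied more between postnatal days than between heptanal groups. The same held for 11291 of the 14930 genes tested. Of the 10, 4 differed between days at an adjusted p under 0.05 by edgeR, beside 27% of all genes: Plxna1 (adjusted p = 0.0114), Epha5 (0.0198), Kirrel2 (0.0272) and Nrp2 (0.0323). Plxna1 averaged 112, 96.4 and 61.0 CPM on days 22, 21 and 18, and its 3 mice of day 18 were below all 6 others, a split whose share over all genes was not counted. Nrp2 averaged 31.1, 22.7 and 15.8 CPM and Kirrel2 247, 221 and 165 CPM, each mean over 1 mouse of each group. Epha5 went the other way, with 1.46 CPM on day 22 and 8.33 and 7.75 CPM on days 21 and 18. Leaving out any 1 mouse other than the 1% heptanal mice of days 21 and 18 left 0 to 2 members called between days, and the share of all genes called in those 7 fits was 9.96% to 23.1%. Without the mice of day 22, whose sample names also differ, 0 members and 0.924% of all genes were called between days. Without those of day 21 the values were 5 and 23.3%, and without those of day 18 they were 1 and 15%.

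Kirrel2 was the member with the smallest share of its spread between days. Of the sum of squares of log2 CPM over the 9 mice, 88.3% lay between days for Plxna1, 74.7% for Epha5 and 72.8% for Nrp2. For Kirrel2, 16.4% lay between days, 82.7% between heptanal groups and 0.909% in the remainder. Sema7a was the other member with more between groups (51.0%) than between days (30.5%). The medians over the 10 members were 49.6% for day and 28.6% for group, beside 52.0% and 14.0% over all genes. Cell type markers also differed by day, and their part in the day differences was not tested: 7 fibroblast and bone markers summed to between 2244 and 3333 CPM on day 18 and between 5740 and 9850 CPM on the other days, and 5 erythroid markers to between 1047 and 1699 CPM on day 18 and between 5800 and 12476 CPM on the other days.

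**Figure D5:**
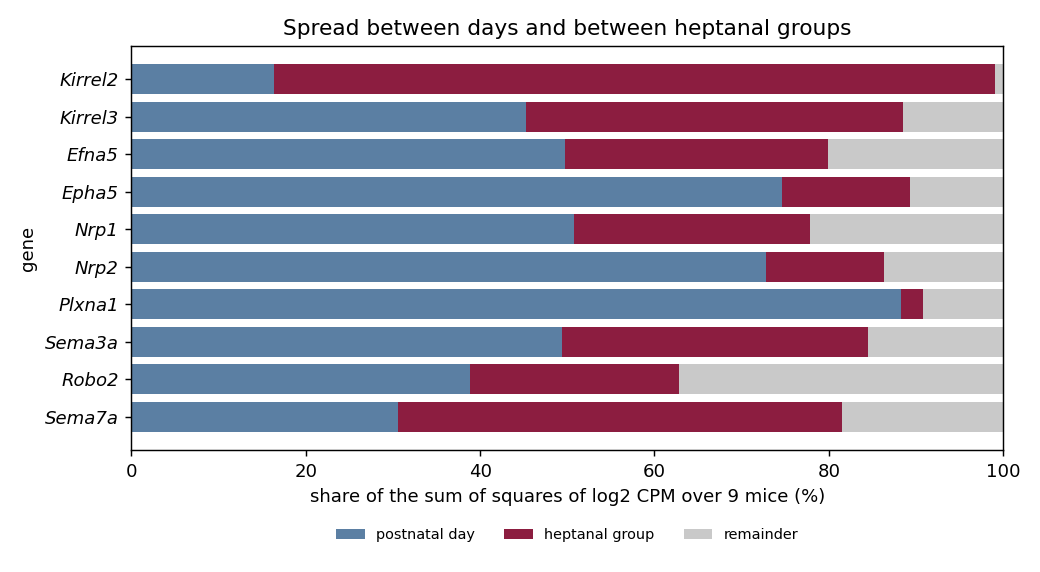
Share of the sum of squares of log2 CPM over 9 mice (x axis, percent) that lay between postnatal days, between heptanal groups and in the remainder, for each of the 10 members. For Kirrel2 82.7% lay between heptanal groups, and for Plxna1 88.3% lay between days.

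Between genes, levels were set per length, with merged exons from 3298 bases for Sema7a to 16983 for Robo2. The libraries were primed with poly-T, so counts need not scale with exon length. The order of the members below depends on these lengths, and read positions along the genes were not tested. Per kilobase of merged exon, Kirrel2 was the most abundant member in the control mice at 36.3 CPM (SD 5.82), followed by Efna5 at 14.3 (SD 4.08) and Plxna1 at 9.61 (SD 3.67), whose ranges overlap. Nrp1 followed at 3.63, Kirrel3 at 3.38, Sema7a at 2.20, Nrp2 at 1.86, Robo2 at 1.27 and Sema3a at 0.888 CPM per kilobase, and neighbors in this run had overlapping ranges. Epha5 was last at 0.401 CPM per kilobase, its highest control mouse below the lowest for Sema3a. In 100% heptanal, Kirrel2 was at 82.6 CPM per kilobase (SD 19.0) and Efna5 at 20.9 (SD 7.82).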

How the data were processed

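RNA was precipitated with a pS6 antibody from the OE of 9 mice, primed with poly-T, amplified, made into Nextera libraries and read as 50 bp single ends. Per the labels and methods, Bowtie placed the reads on the mm10 build and BEDTools counted them over genes, with the authors using their own odorant receptor gene models (versions are not given in the sources used here). The deposited tables have no header. One column was taken as estimated counts, in which the authors shared out reads with several matches, and another as counts of reads with 1 match. The estimated counts, rounded to whole numbers, were used here, and uniquely mapped counts served as an alternative. Columns were matched to genes by symbol, and positions come from GENCODE M21.

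Counts were fitted with edgeR 4.0.16 (glmQLFit and glmQLFTest, R 4.3.3) over all genes kept by filterByExpr (minimum count 10, minimum total 15), with terms for postnatal day and group, TMM factors and Benjamini-Hochberg adjustment over 14930 genes at 0.05. Day was a term because the methods pair littermates within a replication: over the 9 same-day pairs, deviations from the group means correlated at 0.155 to 0.730. The standard error is the log2 fold change over the square root of F. DESeq2 1.42.0 was an alternative. The members and lists were chosen with earlier results of these data known. The genes named are the 10 members, activity genes, any other guidance gene called (there were none), and the 3 genes most like Kirrel2 and Kirrel3. Named outside this rule, after values were seen, are Efna3, some markers from the cell type lists and the antisense gene Gm26811. With 3 mice per group and 1 per day, p-values of the main fit rest on the spread between single mice left after day and group are fitted. The libraries were PCR amplified, with no molecular identifiers mentioned. No sequences are printed.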

Additional observations from a re-analysis of the deposited data

How the results depend on the processing

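Of 600 member values over 20 alternatives (9 leaving out 1 mouse, 3 leaving out 1 day), 516 kept their direction and side of the threshold, 51 changed sign, 26 lost a call (Kirrel2 each time) and 7 gained one with the same sign. Kirrel2 in 100% heptanal against control was higher under each alternative, and was called with DESeq2, with DESeq2's size factors, without TMM, without the filter and on uniquely mapped counts. The cause of the changes below was not tested. The lowest counts in a mouse were 2 for Epha5, 12 for Sema3a and 20 for Sema7a.

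Without the replicate block, 0 members and 2 of all genes were called in 100% heptanal against control, likewise 0 and 2 in the step from 1% to 100%, and Epha5 in 100% heptanal was 0.020. With DESeq2 all-gene calls were 266 (230 higher, 36 lower), 3 in 1% heptanal and 211 in the step. Without TMM factors they were 28 at 100%, 0 members were called in the step, and Nrp1 at 1% was 0.0039. Without the filter they were 76 at 100%, 1 at 1% and 25 in the step.

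Scaled by 5 OSN markers, 4 members (Nrp1, Nrp2, Plxna1 and Sema3a, each lower), 46 other guidance genes and 9742 of all genes were called in 100% heptanal against control, and 2 members (Nrp2 and Plxna1), 23 other guidance genes and 6691 of all genes in the step, with the median of all genes at -1.04 and -0.77. The signs that turned were, at 100%, Kirrel3 -0.36, Efna5 -0.49, Nrp1 -0.61, Plxna1 -0.99 and Robo2 -0.62. At 1% they were Kirrel2 -0.047, Kirrel3 -0.010, Efna5 -0.051 and Plxna1 -0.090, and in the step Kirrel3 -0.35, Efna5 -0.44, Nrp1 -0.33, Sema3a -0.33, Robo2 -0.67 and Sema7a -0.26.

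Scaling by the geometric mean of 8 OSN markers was added after the data were seen. It called 1 member (Sema3a, lower), 11 other guidance genes and 3142 of all genes at 100%, 3 of all genes at 1%, and 2 members, 20 other guidance genes and 5158 of all genes in the step, and 8 members differed between days, where 55.6% of all genes did. The signs that turned were, at 100%, Kirrel3 -0.12, Efna5 -0.27, Nrp1 -0.38, Plxna1 -0.75 and Robo2 -0.38, at 1% Nrp1 0.018, and in the step Kirrel3 -0.44, Efna5 -0.52, Nrp1 -0.40, Sema3a -0.39, Robo2 -0.74 and Sema7a -0.30.

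Leaving out 1 mouse or 1 day gave 0 to 1 members and 1 to 65 of all genes called at 100%, 0 members and 0 to 33 of all genes in the step, and 0 to 5 members differing between days, beside 0.924% to 24.4% of all genes. Signs that turned had ranges of -0.63 to 0.27 for Epha5, -0.20 to 0.057 for Nrp2 and -0.073 to 0.19 for Plxna1 at 100%, of -0.052 to 0.40 for Efna5 and -0.32 to 0.15 for Nrp1 at 1%, and of -0.21 to 0.033 for Plxna1 and -0.043 to 0.34 for Robo2 in the step.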

Other observations

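The genes whose level followed Kirrel2 most closely over the 9 mice, by Pearson's r of log2 CPM after the mean of each day was taken off, were Dusp14, a dual-specificity phosphatase (r = 0.998), Tcte1 (r = 0.996) and Tsc22d1, a leucine zipper protein (r = 0.992). For Kirrel3 they were Kctd17 (r = 0.983), the odorant receptor gene Olfr531 (r = 0.978) and Gpr162, an orphan receptor (r = 0.976). These were picked as the highest of all genes tested, the 9 points fall into 3 heptanal groups, and no test was made.

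Among other cell types, the 5 sustentacular markers were higher in 100% heptanal on each day, at 1.11, 1.33 and 1.73 times the control of the same day in summed level, and 0 of the 5 passed the adjusted test by edgeR (3 at an unadjusted p under 0.05). The 8 basal and progenitor markers summed to 0.654, 0.674 and 0.650 times the control, and 5 erythroid markers to 0.714, 0.470 and 0.616 times. All 5 erythroid markers were lower at an unadjusted p under 0.05 and 0 passed the adjusted test. The 5 immature OSN markers were at 1.09, 0.894 and 1.15 times, the 7 markers of olfactory ensheathing glia at 0.860, 0.823 and 0.693 times, the 7 gland and respiratory markers at 1.03, 1.35 and 1.33 times (a sum carried by Bpifa1, while 5 of the 7 were below 0 in the fit, with a median of -0.04 on the log2 scale and 2 of them, Sox9 and Muc5b, lower at an unadjusted p under 0.05) and the immune markers at 1.02, 0.816 and 0.780 times.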
